A study of Mus musculus with 2 samples.

Results

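The STAT5 genes and their partners form a set of 8 genes here, taken by symbol out of the 31053 genes in the count matrices of 2 single-cell libraries. They are Jak2, which encodes a receptor-bound tyrosine kinase, Stat5a and Stat5b, which encode the STAT5 transcription factors, Cish, Socs1, Socs2 and Socs3, which encode inhibitors of cytokine signaling, and Pim1, which encodes a serine/threonine kinase. All 8 symbols matched 1 row each in both matrices. The genes were followed in each sorted population and in cells gated on the lineage genes Mcpt8, Prg2, Gzmb and Elane.

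Cytokines such as IL-3, IL-5, GM-CSF and erythropoietin bind receptors that carry JAK2, and the activated kinase phosphorylates STAT5, which then enters the nucleus and turns on target genes. Cish and the Socs genes are classical targets whose products dampen cytokine receptors in return, and Pim1 is a target whose product favors survival and growth. IL-3 and STAT5 are known to drive the expansion of basophils and mast cells, and erythroid cells use the same relay below the erythropoietin receptor. RNA was measured, so phosphorylation of STAT5 was not observed.

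Bone marrow cells of FVB mice were sorted as E-cadherin+cKIT+ or as E-cadherin+cKIT-, with no treatment and no genotype contrast, and a single 10x Genomics library was made from each sort. Cells of several mice went into the sorts and cannot be told apart, and ages are not given in the sources used here. The labels name FVB, while the paper names wild-type mice in 1 place and Vav-iCre;mTmG mice, which carry a fluorescent reporter recombined in blood cells, in another. With 1 library per sort and no replicate, differences are given with no test.

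After filtering, the cKIT+ library held 6479 cells with a median of 13039 unique molecular identifiers (UMIs, each counting 1 captured RNA molecule), and the cKIT- library held 3662 cells with a median of 4416.5 UMIs. The libraries shared 10 cell barcodes. Kit, which encodes cKIT, stood at 37.1 CPM in cKIT+ and at 0.875 CPM in cKIT- cells. CPM denotes the UMIs of a gene scaled to 1000000 UMIs of the group of cells, summed over its cells. Intervals in parentheses are 95% intervals, exact Poisson for levels and exact binomial for ratios and shares, and cover counting error only.

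Gates used the share that a marker took of a cell's own UMIs. The Mcpt8 gate, for a basophil protease, held 3043 cKIT+ cells (47.0%) and 2197 cKIT- cells (59.99%). In the cKIT+ library the gate for the eosinophil granule gene Prg2 held 290 cells, that for the granzyme gene Gzmb 302, and that for the neutrophil elastase gene Elane 647. Cells that passed several gates are not counted in these numbers. So counted, the cKIT- library held 0 of 3662 cells in the Prg2 and Gzmb gates (exact upper limit 0.101%) and 3 cells in the Elane gate. These gates could therefore not be compared between the sorts. Some marker genes that no gate used were high in the gates. Prss34, another basophil protease gene, stood at 21476 CPM in the cKIT+ Mcpt8 gate, and the eosinophil peroxidase gene Epx at 2263 CPM in the Prg2 gate. The mast cell chymase gene Cma1 stood at 435 CPM in the Gzmb gate, where the NK cell genes Ncr1 and Klrb1c and the mast cell tryptase gene Tpsb2 had 0 UMIs. The Gzmb gate also held 5726 UMIs of the neutrophil gene Camp, 96.6% of them in 6 cells, and 7 of its cells passed the limit set for neutrophil genes. The proteinase gene Prtn3 stood at 7142 CPM in the Elane gate. As a gauge of the RNA that droplets share, Prss34 reached 557 CPM in the Prg2 and 165 CPM in the Elane gate, 2.60% and 0.769% of its level in the Mcpt8 gate. Epx in the Elane gate was at 1.93% of its level in the Prg2 gate, and Prtn3 in the Mcpt8 gate at 1.68% of its level in the Elane gate. Lower values were found too, at 0.547% for Prss34 in the Gzmb gate and 0.0957% for Cma1 in the Prg2 gate. The values thus differed between gates, and RNA shared by droplets cannot be told apart from expression in the cells.

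Cells that passed several gates (96 and 8) were set apart. Cells that passed none were grouped by the summed UMIs of other markers, at least 3 per cell. The limit was 500 CPM for Ms4a2, the gene for the β chain of the IgE receptor. It was also 500 CPM for the sets Cd79a/Cd79b and Csf1r/Ly86/Irf8, 1000 for C1qa/C1qb/C1qc, 2000 for Hba-a1 and 5000 for Camp/Ngp/Ltf. Cells past only the Ms4a2 limit numbered 912 in the cKIT+ and 916 in the cKIT- library, and could hold other markers below their limits. This division of the ungated cells was chosen after seeing the data.

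The set differed widely in abundance. Jak2 had 5478 UMIs in cKIT+ and 3311 in cKIT- cells, and Pim1 had 6056 and 4645. Stat5a had 2747 and 616 UMIs, and Stat5b had 2584 and 1067. The inhibitor genes were sparse, with 192 and 120 UMIs for Cish, 271 and 169 for Socs1, 171 and 31 for Socs2, and 27 and 50 for Socs3. Of the cells with a Cish UMI, 178 of 185 cKIT+ and 112 of 116 cKIT- cells held a single one. The values of the inhibitor genes are therefore levels of groups of cells rather than of single cells.

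Jak2 lies on chromosome 19 from 29251828 to 29313080 (GRCm38, plus strand). Its level was 60.1 CPM (58.5 to 61.7) over all cKIT+ cells and 145 CPM (139.9 to 149.8) over all cKIT- cells, a ratio of 2.41 (2.31 to 2.51). Among Mcpt8-gated cells it was 82.3 CPM (79.7 to 85.0) in cKIT+ and 133 CPM (128 to 138) in cKIT- cells, a ratio of 1.62 (1.53 to 1.70). Jak2 was thus higher in cKIT- cells in both settings, and the gap was smaller among Mcpt8-gated cells. The libraries were also compared over all Ms4a2 cells, Mcpt8-gated ones included and cells of other lineages left out, an alternative added after seeing the data that kept 3841 cKIT+ and 3058 cKIT- cells. The Jak2 ratio was then 1.97 (1.88 to 2.06), just under 2-fold.

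Stat5a and Stat5b, close to each other on chromosome 11, did not move alike. Stat5b (100780731 to 100850724, minus strand) stood at 28.4 CPM (27.3 to 29.5) over all cKIT+ cells and at 46.7 CPM (43.9 to 49.5) over all cKIT- cells, a ratio of 1.65 (1.53 to 1.77). Stat5a (100859351 to 100885169, plus strand) stood at 30.2 CPM (29.0 to 31.3) and 26.9 CPM (24.9 to 29.1), a ratio of 0.893 (0.817 to 0.975). Among Mcpt8-gated cells the ratio was 1.43 (1.31 to 1.57) for Stat5b. For Stat5a it was 0.966 (0.868 to 1.07), an interval that holds equality. Stat5a overlaps Stat3 on the opposite strand in the annotation, and none of the 8 genes overlaps another gene on its own strand.

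Pim1 lies on chromosome 17 from 29490753 to 29496112 (plus strand). It stood at 66.5 CPM (64.8 to 68.2) over all cKIT+ cells and at 203 CPM (197 to 209) over all cKIT- cells, a ratio of 3.06 (2.94 to 3.18). The Mcpt8-gated levels were 79.6 CPM (77.1 to 82.3) and 168 CPM (162 to 174), a ratio of 2.11 (2.01 to 2.21). Among the 4 more abundant genes of the set, Pim1 had the widest gap between the sorts. With the limits of all gates doubled its Mcpt8-gated ratio was 1.94, under 2-fold.

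Of the 8 genes, Stat5a, Stat5b, Jak2 and Pim1 passed the minimum of 10 CPM in 1 of the libraries. Among these 4, Jak2 and Pim1 were at least 2-fold higher over all cKIT- cells, against 9.05% of the 8019 genes compared, and 0 were at least 2-fold lower, against 7.27%. Their median log2 ratio was 0.99, beside 0.03 over all genes compared. Among Mcpt8-gated cells, 1 of the 4, Pim1, was at least 2-fold higher, against 4.82% of 7713 genes, and 0 were 2-fold lower, against 4.17%. The other 4 genes were under the minimum and entered none of these counts.

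These ratios rest on scaling to total UMIs. As plain UMIs per cell, the ratio over all cells was 1.07 for Jak2, 1.36 for Pim1, 0.731 for Stat5b and 0.397 for Stat5a. Among Mcpt8-gated cells it was 0.892 for Jak2, 1.16 for Pim1, 0.790 for Stat5b and 0.534 for Stat5a. The direction for Stat5b, and for Jak2 among Mcpt8-gated cells, thus turned when UMIs were not scaled to the total of the group.

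Shares of cells with a UMI were also taken at an equal depth of 2000 UMIs drawn from each cell. Such drawing is itself a scaling to the total of each cell, so these shares cannot decide whether the scaling is apt. A Jak2 UMI was found in 16.2% (14.9 to 17.6) of Mcpt8-gated cKIT+ cells, 487 of 3001, and in 25.4% (23.6 to 27.3) of Mcpt8-gated cKIT- cells, 550 of 2162. For Pim1 the shares were 15.5% (14.2 to 16.9) and 30.3% (28.4 to 32.3). The drawing left out 42 cKIT+ and 35 cKIT- cells with fewer UMIs. Without drawing, at medians of 14103 and 7736 UMIs per cell, the shares were 66.3% and 64.2% for Jak2 and 61.3% and 66.1% for Pim1. In the Elane gate, where both genes were lowest among the gates, the drawn shares were 4.84% for Jak2 and 5.15% for Pim1, at a median of 23985 UMIs per cell before drawing.

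**Figure D1:**
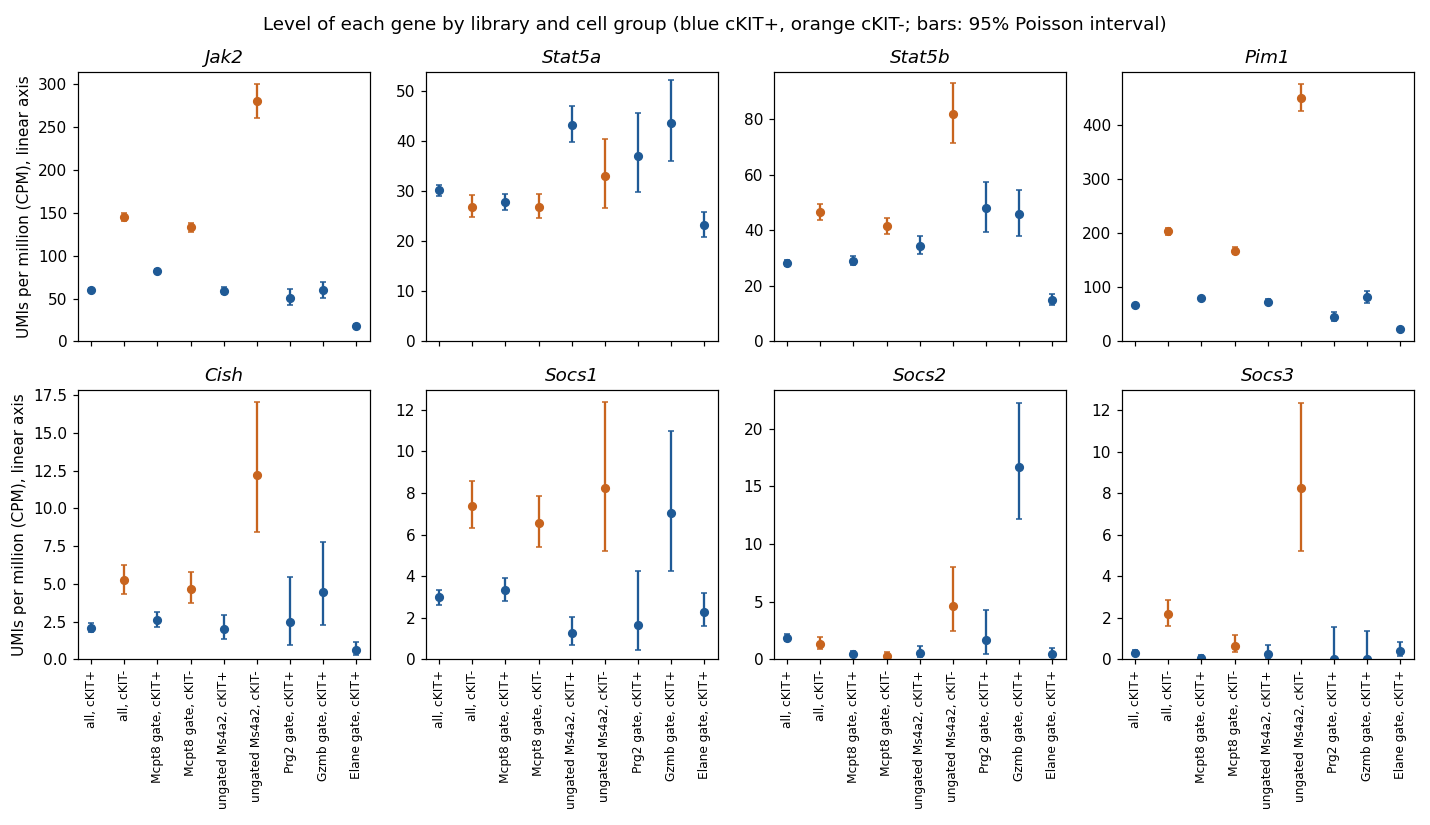
Each panel plots 1 gene, with the level in UMIs scaled to 1000000 (CPM) on a linear axis from 0 and 9 groups of cells along the horizontal axis; points are levels and bars are 95% Poisson intervals. The ungated Ms4a2 cells of the cKIT- library sat highest for Jak2 (279.6 CPM), Pim1 (449 CPM), Stat5b (81.7 CPM) and Cish (12.2 CPM), whereas Socs2 was highest in the Gzmb gate (16.6 CPM).

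The gap between the sorts differed with the amount of Mcpt8 in the cells. Mcpt8-gated cells were divided into a low band (5000 to 20000 CPM of Mcpt8), a middle band (20000 to 40000 CPM) and a high band (40000 CPM or more). In cKIT- cells Jak2 stood at 189 CPM (173 to 206) in the low, 129 CPM (122 to 136) in the middle and 111 CPM (101 to 120.4) in the high band. In cKIT+ cells it stood at 78.8 CPM (75.1 to 82.6), 85.0 CPM (81.1 to 89.0) and 94.4 CPM (81.0 to 109.5). The bands thus ran in opposite order in the sorts. The ratio of cKIT- to cKIT+ was 2.399 (2.17 to 2.65) in the low, 1.51 (1.41 to 1.63) in the middle and 1.17 (0.985 to 1.40) in the high band, where the interval holds equality.

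Pim1 followed the same order. Its cKIT- levels were 263 CPM (244 to 283), 153 CPM (146 to 161) and 147 CPM (136 to 158) from the low to the high band, and its cKIT+ levels were 73.7 CPM (70.2 to 77.4), 83.8 CPM (79.9 to 87.8) and 103 CPM (89.0 to 119). The ratio between the sorts was 3.57 (3.26 to 3.90), 1.83 (1.71 to 1.96) and 1.42 (1.21 to 1.68). Within cKIT- cells the low band exceeded the high band 1.71-fold for Jak2 (1.51 to 1.93) and 1.80-fold for Pim1 (1.62 to 2.00). Within cKIT+ cells the low band lay below the high band, at ratios of 0.834 (0.714 to 0.980) for Jak2 and 0.715 (0.616 to 0.836) for Pim1. The order in cKIT- cells rested on the scaling, and the low band had a median of 3959 and the high band of 9387 UMIs per cell. The low band lay below the high band there in UMIs per cell, at 0.823 (0.728 to 0.931) for Jak2 and 0.865 (0.778 to 0.961) for Pim1. Within cKIT+ cells the ratios were then 0.983 (0.841 to 1.16) and 0.843 (0.726 to 0.985). Between the sorts, UMIs per cell gave ratios of 0.736 (0.666 to 0.813) in the low, 0.967 (0.900 to 1.04) in the middle and 0.879 (0.740 to 1.05) in the high band for Jak2. The direction for Jak2 thus turned in the low band, and the other intervals held equality. For Pim1 they were 1.09 (1.00 to 1.20), 1.17 (1.09 to 1.25) and 1.07 (0.909 to 1.26).

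Stat5b had a cKIT- level of 60.8 CPM (51.9 to 70.8) in the low band and 33.9 CPM (28.8 to 39.5) in the high band, while its cKIT+ levels were 29.98, 28.0 and 29.1 CPM from the low to the high band. Its ratio between the sorts was 2.03 (1.70 to 2.41) in the low band and 1.16 (0.849 to 1.61) in the high band, where the interval holds equality. Its low-band ratio turned in UMIs per cell, to 0.622 (0.522 to 0.739). Stat5a was lower at high than at low Mcpt8 in both sorts, 18.3 against 32.1 CPM in cKIT+ and 25.3 against 34.3 CPM in cKIT- cells. The intervals of its ratio between the sorts held equality in each of the 3 bands. As UMIs per cell the ratio was 0.328 (0.261 to 0.407) in the low and 0.679 (0.584 to 0.788) in the middle band, so its place between the sorts rested on the scaling as well.

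**Figure D2:**
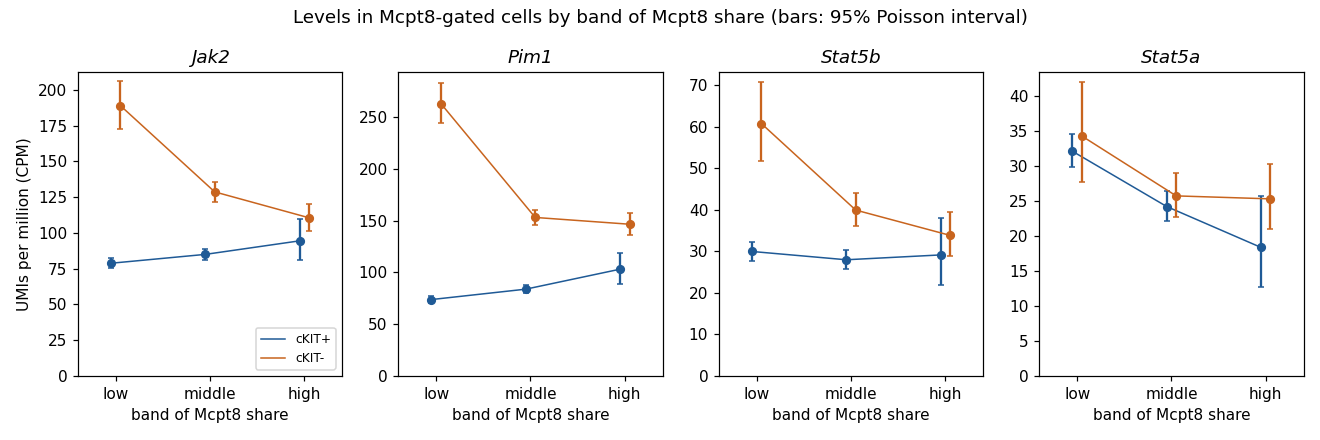
The level of Jak2, Pim1, Stat5b and Stat5a in CPM is plotted against the band of Mcpt8 share (low, middle, high) for Mcpt8-gated cells of the cKIT+ and cKIT- libraries, with 95% Poisson intervals as bars. For Jak2 the libraries stood at 78.8 and 189 CPM in the low band and at 94.4 and 111 CPM in the high band.

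The low band held 583 cKIT- cells with a median of 3959 UMIs, and 12.2% of the 558 with at least 2000 UMIs were cycling, meaning that at least 2 of 2000 drawn UMIs came from 12 cell cycle genes. It held 1467 cKIT+ cells with a median of 14219 UMIs, and 47.0% of the 1432 with at least 2000 UMIs were cycling. Cycling and resting Mcpt8-gated cells were also compared apart, an alternative added after seeing the data. The Jak2 ratio between the sorts was 1.86 (1.73 to 2.01) in resting and 1.39 (1.29 to 1.497) in cycling cells, and the Pim1 ratio was 2.24 (2.09 to 2.41) and 1.90 (1.77 to 2.04). For Stat5a the direction differed, with 1.09 (0.936 to 1.27) in resting and 0.853 (0.732 to 0.990) in cycling cells. Within cKIT+ cells, Jak2 stood at 82.3 CPM in resting and 82.1 CPM in cycling cells. Within cKIT- cells it stood at 153 CPM (145 to 162) and 114 CPM (108 to 121). The Jak2 counts were 1283 UMIs in 1274 resting and 1099 UMIs in 888 cycling cKIT- cells. In cKIT+ cells they were 1445 UMIs in 1422 resting and 2268 UMIs in 1579 cycling cells. As UMIs per cell, Jak2 was thus lower in resting than in cycling cells of both sorts. Pim1 was higher in resting than in cycling cells in both sorts, 1.22-fold (1.14 to 1.31) in cKIT+ and 1.44-fold (1.34 to 1.55) in cKIT- cells. These Pim1 ratios turned to 0.863 (0.808 to 0.923) and 0.877 (0.816 to 0.943) as UMIs per cell. The Jak2 ratio between the sorts was then 0.991 (0.919 to 1.07) in resting and 0.862 (0.801 to 0.926) in cycling cells, and the Stat5a ratio 0.582 (0.498 to 0.678) and 0.528 (0.453 to 0.613).

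Among the Mcpt8 bands and the ungated Ms4a2 cells of both libraries, the CPM of Jak2, Pim1 and Stat5b was highest in the ungated Ms4a2 cells of the cKIT- library. Their Mcpt8 share was under the gate, their level of Fcer1a, for the α chain of the IgE receptor, was 869.5 CPM, and 0.117% of the 854 with at least 2000 UMIs were cycling. The ungated Ms4a2 cells of the cKIT+ library stood at 94.4 CPM of Fcer1a, and 39.5% of 898 were cycling. Jak2 stood at 279.6 CPM (260.3 to 299.9) in the cKIT- and 59.4 CPM (55.3 to 63.8) in the cKIT+ cells, a ratio of 4.71 (4.25 to 5.21). Pim1 stood at 449 CPM (425 to 475) and 73.3 CPM (68.7 to 78.1), a ratio of 6.13 (5.63 to 6.68). Stat5b stood at 81.7 CPM (71.5 to 93.0) and 34.5 CPM (31.4 to 37.9), a ratio of 2.37 (2.01 to 2.78). Stat5a went the other way, with 33.0 CPM (26.6 to 40.4) and 43.3 CPM (39.7 to 47.0), a ratio of 0.762 (0.605 to 0.952). With Cish, 5 members passed the minimum and 4 of them lay 2-fold or more higher in the cKIT- library, against 20.3% of 8212 genes. Of the 5, 0 were 2-fold lower, against 25.1%, so these groups of cells differed in many genes. Cish passed only through the cKIT- cells, where it was high, so its place in the count adds no support.

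The depth of these groups differed widely, at medians of 3003 UMIs per cell in the cKIT- and 13339.5 in the cKIT+ library. As UMIs per cell the ratio between the sorts was 1.02 (0.921 to 1.13) for Jak2, an interval that holds equality, and 1.33 (1.22 to 1.45) for Pim1. For Stat5b it turned to 0.512 (0.435 to 0.603), and for Stat5a it was 0.165 (0.131 to 0.206). The higher CPM of Jak2 and Stat5b in the cKIT- cells was therefore a larger share of fewer UMIs per cell. Per the paper, that library also had fewer reads per cell.

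Within the cKIT- library the same cells exceeded the Mcpt8 gate 2.10-fold for Jak2 (1.94 to 2.28), 2.68-fold for Pim1 (2.50 to 2.86) and 1.97-fold for Stat5b (1.69 to 2.29). Of the 5 members that passed the minimum, Jak2, Pim1 and Cish were at least 2-fold higher, against 9% of 7731 genes. Cish passed only through the ungated Ms4a2 cells, where it was high (12.2 against 4.66 CPM), so its place in the count adds no support. With TMM, a scaling that takes most genes as equal, the Jak2 ratio was 1.97 (1.82 to 2.14), under 2-fold, and the genes at least 2-fold apart numbered 541 higher and 1231 lower, in place of 696 and 1104. The ratios in UMIs per cell to the Mcpt8 gate, whose median was 7736 UMIs, turned to 0.780 (0.719 to 0.846) for Jak2 and 0.731 (0.628 to 0.849) for Stat5b. For Pim1 and Cish they were 0.993 (0.929 to 1.06) and 0.971 (0.632 to 1.46), intervals that hold equality. At 2000 drawn UMIs, 43.2% (39.9 to 46.6) of these cells held a Jak2 UMI and 52.3% (48.9 to 55.7) a Pim1 UMI. The shares in the ungated Ms4a2 cells of the cKIT+ library were 12.2% (10.2 to 14.6) and 17.0% (14.6 to 19.7). The share with a Jak2 UMI did not move with Pim1 beyond its interval. Of the cKIT- ungated Ms4a2 cells with a drawn Pim1 UMI, 42.5% (37.9 to 47.2) held a Jak2 UMI, and of those without, 44.0% (39.1 to 49.0) did. Among Mcpt8-gated cKIT- cells the shares were 25.2% and 25.5%.

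In CPM, genes of the early response to handling and stress were, in sum, higher in the cKIT- library too. The 14 genes of that list summed to 1207 CPM over all cKIT+ and 3076 CPM over all cKIT- cells, and to 1409 and 2671 CPM in the Mcpt8 gates. The sum was 1247 CPM in cKIT+ and 3700 CPM in cKIT- cells of the low band, and 1905 and 2534 CPM in the high band. It was 1250 CPM in the ungated Ms4a2 cells of the cKIT+ and 5662 CPM in those of the cKIT- library. As plain counts, the list had 110011 UMIs in 6479 cKIT+ and 70357 UMIs in 3662 cKIT- cells. In the low band it had 27743 UMIs in 1467 cKIT+ and 10043 UMIs in 583 cKIT- cells. In the ungated Ms4a2 cells it had 16041 UMIs in 912 cKIT+ and 15797 UMIs in 916 cKIT- cells. The gap in the sum thus rested largely on the scaling. Of the 11 listed genes that passed the minimum over all cells, 8 lay 2-fold or more higher in the cKIT- library, against 9.05% of all genes compared, Junb among them at 59.3 and 237 CPM. Zfp36 (5.62 and 47.7 CPM) and Egr1 (9.76 and 23.7 CPM) passed only through the cKIT- cells, where they were high. Their places in the count add no support. Fos of the same list went the other way in the ungated Ms4a2 cells, at 35.1 CPM in cKIT- and 63.8 CPM in cKIT+ cells. The heat shock gene Hspa1a of the same list, under the minimum, stood at 0.878 CPM in cKIT+ and 0.0875 CPM in cKIT- cells. In other groups some genes of the set went with the sum and others did not. In cKIT+ cells with the hemoglobin gene Hba-a1 the sum was 749 CPM, beside 301 CPM of Pim1 and 26.5 CPM of Jak2. In cKIT- cells with the B cell receptor genes Cd79a or Cd79b it was 3141 CPM, with Jak2 at 30.9 and Pim1 at 148 CPM. In the Gzmb gate it was 2788 CPM, with Jak2 at 59.9 CPM against 82.3 CPM in the cKIT+ Mcpt8 gate. Stat5a, Stat5b, Socs2 and Pim1 stood at 43.6, 45.8, 16.6 and 82.4 CPM in the Gzmb gate. Their levels in the cKIT+ Mcpt8 gate were 27.8, 29.0, 0.486 and 79.6 CPM. The part of handling in the levels of the set was not tested.

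The balance of the STAT5 genes lay more on Stat5b in the cKIT- library. Stat5b took 2584 of 5331 STAT5 UMIs in cKIT+ cells, 48.5% (47.1 to 49.8), and 1067 of 1683 in cKIT- cells, 63.4% (61.0 to 65.7). This share does not depend on the scaling to total UMIs. Among Mcpt8-gated cells it was 51.0% (49.1 to 53.0) in cKIT+ and 60.7% (57.9 to 63.4) in cKIT- cells. The ungated Ms4a2 cells stood at 44.4% (41.3 to 47.5) in the cKIT+ and 71.2% (66.0 to 76.1) in the cKIT- library. The Elane gate had the lowest share among the gates, 39.4% (35.4 to 43.5), whereas both genes had nearly equal counts in the Gzmb gate, at 51.2% (44.8 to 57.7). From the low to the high band of Mcpt8 the share was 48.3%, 53.6% and 61.4% in cKIT+ cells and 64.0%, 60.8% and 57.2% in cKIT- cells. In the high band the intervals of the sorts overlapped (50.4 to 71.6 and 51.3 to 63.1).

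**Figure D3:**
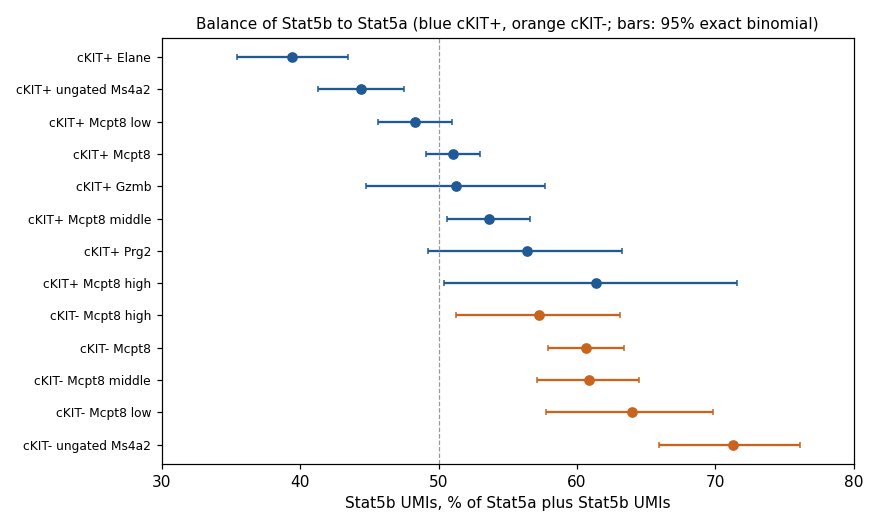
The share of Stat5b among Stat5a and Stat5b UMIs, in percent, is plotted for 13 groups of cells of the cKIT+ and cKIT- libraries with exact binomial 95% intervals, and the dashed line marks equal counts. The share ran from 39.4% in the Elane gate to 71.2% in the ungated Ms4a2 cells of the cKIT- library.

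Cish lies on chromosome 9 from 107296026 to 107302784 (plus strand), and its product binds activated cytokine receptors. STAT5 binds DNA at palindromes of the form TTCNNNGAA, which read the same on both strands. RefSeq promoter windows, 250 bases before to 50 after a transcript start on GRCm38.p6, were at hand for 7 of the 8 genes, Socs2 having no entry. The 7 genes had 10 windows, and 1 window each of Cish and Socs3 held the palindrome. It was found in 8.30% of all 32851 windows, and 0.457% held 2 or more, as that of Cish did. Both palindromes of Cish lie within the transcript of that window, from its bases 1 and 12. Starts here are those of the RefSeq windows. For Cish that start, 107296659, lies downstream of the gene start given above, which comes from another annotation. The Socs3 window likewise lies inside the gene bounds given for Socs3 below. The matching stretches are shown because they place these letters beside genes of the set whose RNA was measured, with the palindromes in capitals. The Cish stretch is chr9:107296559-107296678 (plus strand), from 100 bases before the start to base 20 of the transcript, and the Socs3 stretch is chr11:117969467-117969566 (minus strand), from 200 to 101 bases before the start. A match is a description of the sequence and not a measured binding site.
Cish: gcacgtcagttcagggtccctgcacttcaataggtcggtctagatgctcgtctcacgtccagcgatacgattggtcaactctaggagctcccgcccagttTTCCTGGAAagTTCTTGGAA
Socs3: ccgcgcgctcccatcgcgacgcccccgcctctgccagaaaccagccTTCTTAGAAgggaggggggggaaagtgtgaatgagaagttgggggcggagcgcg

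Cish, whose window carries the pair of palindromes, stood at 2.11 CPM (1.82 to 2.43) over all cKIT+ and 5.25 CPM (4.35 to 6.27) over all cKIT- cells, a ratio of 2.49 (1.97 to 3.14). The Mcpt8-gated levels were 2.61 CPM (2.16 to 3.12) and 4.66 CPM (3.71 to 5.77), a ratio of 1.79 (1.33 to 2.38), which as UMIs per cell was 0.986. The ungated Ms4a2 cells of the cKIT- library stood at 12.2 CPM (8.44 to 17.0), with 34 UMIs in 32 cells, and those of the cKIT+ library stood at 2.03 CPM (1.32 to 2.97), a ratio that as UMIs per cell was 1.30 (0.759 to 2.26). Cish was lowest among the gates in the Elane gate, at 0.590 CPM (0.270 to 1.12), a ratio of 0.226 (0.101 to 0.444) to the cKIT+ Mcpt8 gate. Of the 120 Cish UMIs in cKIT- cells, 70.0% lay in the Mcpt8 gate and 28.3% in the ungated Ms4a2 cells.

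Socs1 (chromosome 16, 10782240 to 10785536, minus strand) encodes a direct inhibitor of JAK kinases. It stood at 2.97 CPM (2.63 to 3.35) over all cKIT+ and 7.39 CPM (6.32 to 8.59) over all cKIT- cells, a ratio of 2.48 (2.04 to 3.02), and its Mcpt8-gated ratio was 1.96 (1.53 to 2.51). In cKIT- cells with the B cell receptor genes Cd79a or Cd79b it reached 19.7 CPM (10.8 to 33.0), with UMIs in 11 of 227 cells. Its 7.02 CPM (4.23 to 11.0) in the Gzmb gate came from 19 UMIs in 7 cells. The largest Socs1 count in a single cKIT+ cell was 13 UMIs. By the counts of UMIs and cells, that cell lay in the Gzmb gate, so this level rests largely on 1 cell.

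Socs2 was highest among the gates in the Gzmb gate. It lies on chromosome 10 from 95385362 to 95417180 (minus strand), and its product is known for restraining growth hormone signaling. Its level was 0.486 CPM (0.305 to 0.736) in the cKIT+ Mcpt8 gate and 16.6 CPM (12.1 to 22.3) in the Gzmb gate, a ratio of 34.2 (20.1 to 59.8). The 45 UMIs of the Gzmb gate lay in 24 of 302 cells, and without the cell that held most of them the level was 14.4 CPM (10.3 to 19.7). With the gate limits doubled the level was 23.9 CPM.

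A higher level still, 73.8 CPM (50.8 to 104), was found in the 69 cKIT+ cells with Cd79a or Cd79b, where 17 cells held 33 UMIs. The 227 cKIT- cells with these genes stood at 2.81 CPM (0.340 to 10.2). The Gzmb gate and the Cd79 cells held 26.3% and 19.3% of the 171 Socs2 UMIs in cKIT+ cells, while holding 2.97% and 0.491% of all UMIs. Over all cells Socs2 stood at 1.88 CPM (1.61 to 2.18) in cKIT+ and 1.36 CPM (0.921 to 1.92) in cKIT- cells, a ratio of 0.722 (0.476 to 1.06), an interval that holds equality. Over all Ms4a2 cells, Mcpt8-gated ones included, the ratio was 1.77 (0.921 to 3.31), which holds equality too. The ungated Ms4a2 cells held 41.9% of the 31 Socs2 UMIs in cKIT- cells. Between the sorts their Socs2 ratio was 8.54 (3.17 to 25.3), from 13 UMIs in cKIT- and 7 in cKIT+ cells, and as UMIs per cell it was 1.85 (0.686 to 5.47). Within the cKIT- library their ratio was 16.8 (5.62 to 60.2) to the Mcpt8 gate, which had 5 UMIs.

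**Figure D4:**
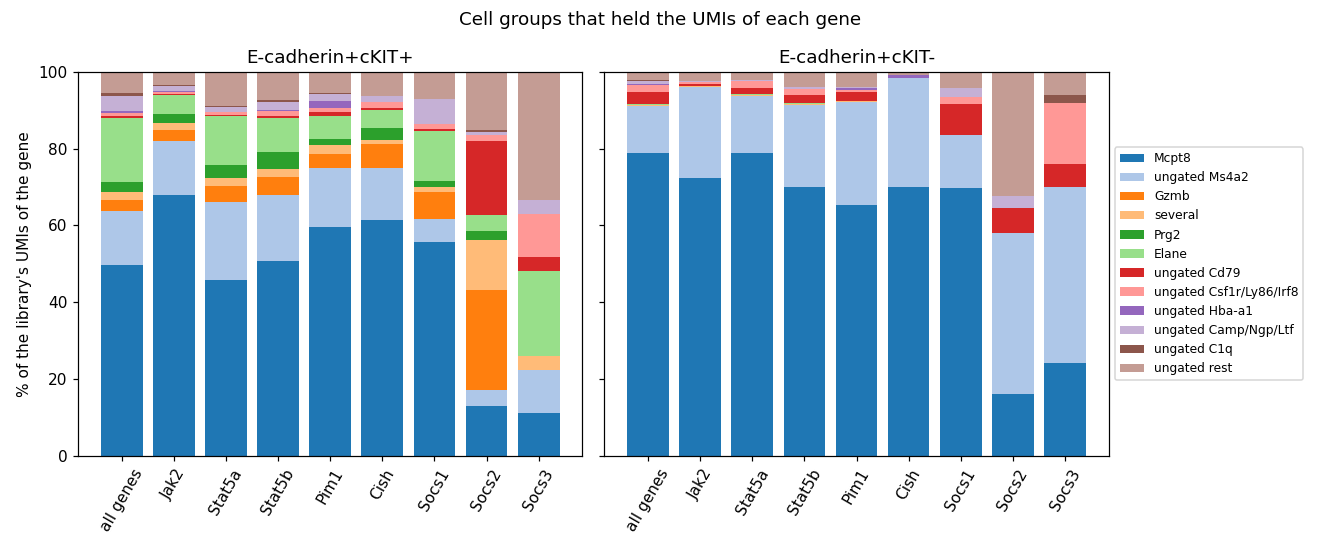
Stacked bars give, for each library, the percentage of the UMIs of all genes together and of each gene of the set that lay in each group of cells. In the cKIT+ library the Gzmb gate held 2.97% of all UMIs but 26.3% of the Socs2 UMIs, and in the cKIT- library the ungated Ms4a2 cells held 12.2% of all UMIs but 46.0% of the Socs3 UMIs.

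Socs3 (chromosome 11, 117966079 to 117970047, minus strand), whose product inhibits receptors such as those for G-CSF and IL-6, had the fewest UMIs of the set over both libraries together. It stood at 0.296 CPM (0.195 to 0.431) over all cKIT+ and 2.19 CPM (1.62 to 2.88) over all cKIT- cells, a ratio of 7.38 (4.53 to 12.3). With every cell given the same weight the ratio was 4.01, and over all Ms4a2 cells, Mcpt8-gated ones included, it was 16.0 (6.68 to 46.7). Among Mcpt8-gated cells it had 3 UMIs in cKIT+ and 12 in cKIT- cells. The ungated Ms4a2 cells of the cKIT- library stood at 8.24 CPM (5.23 to 12.4), with 23 UMIs in 23 cells, and those of the cKIT+ library had 3 UMIs, a ratio of 35.3 (10.7 to 183). The cKIT- cells with the monocyte and dendritic cell genes Csf1r, Ly86 or Irf8 stood at 17.1 CPM (7.39 to 33.7), with 8 UMIs in 4 of 67 cells. By the counts of UMIs and cells, 5 of these UMIs lay in 1 cell, so this level rests largely on that cell. In the Prg2 and Gzmb gates it had 0 UMIs, for which the exact Poisson upper limits are 1.54 and 1.36 CPM.

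The other gates of the cKIT+ library set the signaling genes apart from each other. In the Elane gate Jak2 stood at 18.2 CPM (16.1 to 20.4), a ratio of 0.221 (0.195 to 0.249) to the Mcpt8 gate, and Pim1 at 23.3 CPM (20.9 to 25.8), a ratio of 0.292 (0.261 to 0.326). Stat5b had a ratio of 0.520 (0.450 to 0.598) there, whereas Stat5a was nearer to the Mcpt8 gate at 0.834 (0.739 to 0.939). As UMIs per cell the ratios were 0.350 (0.309 to 0.395) for Jak2, 0.464 (0.414 to 0.517) for Pim1 and 0.825 (0.714 to 0.949) for Stat5b, and Stat5a turned to 1.32 (1.17 to 1.49). Of the 4 members that passed the minimum, Jak2 and Pim1 were at least 2-fold lower in the Elane gate, against 8.7% of 7794 genes, and 0 were 2-fold higher, against 5.85%. The handling list was low there too, at 474 CPM in sum, beside 1409 CPM in the Mcpt8 gate.

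In the Prg2 gate Stat5b stood at 47.9 CPM (39.6 to 57.5), a ratio of 1.65 (1.35 to 2.00) to the Mcpt8 gate. Jak2 and Pim1 were lower there, at ratios of 0.617 (0.511 to 0.740) and 0.570 (0.467 to 0.690). Of the 4 members that passed the minimum, 0 were at least 2-fold apart, against 6.98% of 7997 genes higher, 6.1% lower and 13.1% either way. In the Gzmb gate Stat5a and Stat5b stood at 43.6 CPM (36.1 to 52.2) and 45.8 CPM (38.1 to 54.7), ratios of 1.57 (1.29 to 1.89) and 1.58 (1.30 to 1.90). Jak2 was lower there, at 0.728 (0.618 to 0.852), and Pim1 stood at 82.4 CPM with a ratio of 1.04 (0.900 to 1.19). Of 5 members that passed the minimum, Socs2 was at least 2-fold higher, against 12.8% of 8266 genes, and 0 were 2-fold lower, against 7.22%. Socs2 passed only through the Gzmb gate, where it was high, so its place in the count adds no support. The handling list summed to 2788 CPM in the Gzmb and 909 CPM in the Prg2 gate.

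Scaling mattered for these gates. The median gene was 0.20 higher on the log2 scale in the Gzmb than in the Mcpt8 gate, and 0.10 higher in the Prg2 gate. With TMM scaling the genes at least 2-fold apart in the Gzmb gate numbered 587 higher and 943 lower, in place of 1058 and 597. In the Prg2 gate they numbered 404 higher and 645 lower, in place of 558 and 488. The Gzmb ratios were then 1.24 (1.01 to 1.49) for Stat5a, 1.25 (1.03 to 1.498) for Stat5b, 0.573 (0.487 to 0.671) for Jak2 and 27.0 (15.9 to 47.1) for Socs2. Pim1 turned to the lower side at 0.816 (0.709 to 0.934). The Prg2 ratio of Stat5b was 1.46 (1.20 to 1.77). As UMIs per cell, Stat5a and Stat5b lay at 0.944 (0.775 to 1.14) and 0.952 (0.786 to 1.15) of the Mcpt8 gate in the Gzmb gate, where both intervals hold equality. In the Prg2 gate they lay at 0.742 (0.591 to 0.920), which is lower, and 0.920 (0.753 to 1.11). Socs2 in the Gzmb gate was at 20.6 (12.1 to 36.0).

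In CPM, Pim1 was also high in some cKIT+ cells of other lineages. It stood at 301 CPM (245 to 365) in 56 cKIT+ cells with the hemoglobin gene Hba-a1, with 102 UMIs in 29 cells. In the Cd79 cells it stood at 154 CPM (120.1 to 195) in the cKIT+ and 148 CPM (121 to 179) in the cKIT- library. Over all cells of these libraries it stood at 66.5 and 203 CPM, so it was not high in the cKIT- Cd79 cells. They held 2.26% of the Pim1 UMIs and 3.11% of all UMIs of their library. In counts, the Cd79 cells had 69 UMIs in 69 cKIT+ and 105 UMIs in 227 cKIT- cells. The Mcpt8 gates had 3602 UMIs in 3043 and 3028 UMIs in 2197 cells, more per cell. Jak2 was low in the same cells, at 26.5 CPM (12.1 to 50.4) in the Hba-a1 cells and at 17.9 CPM (7.73 to 35.3) and 30.9 CPM (19.4 to 46.8) in the Cd79 cells. The Cd79 cells made up 1.06% of the cKIT+ and 6.20% of the cKIT- library.

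Among 45 other genes of the pathway, 36 passed the minimum over all cells, of which 11 were at least 2-fold higher and 3 at least 2-fold lower in cKIT- cells, against 9.05% and 7.27% of all genes compared. The receptor genes gave 4 of the higher ones. Il3ra, the IL-3 receptor α chain, stood at 114 CPM in cKIT+ and 241 CPM in cKIT- cells. Csf2rb, the shared β chain of the IL-3, IL-5 and GM-CSF receptors, stood at 188 and 419 CPM, and Csf2rb2, the mouse β chain specific for IL-3, at 87.4 and 238 CPM. Il7r, the IL-7 receptor α chain, stood at 4.35 and 75.6 CPM. Kit, which passed the minimum only through the cKIT+ cells, where it was high, was the receptor gene that was lower. Of the 8 other JAK and STAT genes, 0 reached 2-fold in either direction. Of the 8 other inhibitor genes that passed, Sh2b3, whose product restrains JAK2, stood at 12.5 and 29.3 CPM, and Pias3 at 6.77 and 14.5 CPM. Il7r and Pias3 passed the minimum only through the cKIT- cells, where they were high, so their places in the count add no support. These levels rest on the scaling too, to 91108781 UMIs in 6479 cKIT+ and 22869169 UMIs in 3662 cKIT- cells. As UMIs per cell the ratios are all smaller, and those of Il3ra, Csf2rb, Sh2b3 and Pias3 come near equality.

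The other targets gave 5 higher and 2 lower of the 12 that passed. Osm, a known STAT5 target encoding oncostatin M, stood at 7.497 CPM in cKIT+ and 67.6 CPM in cKIT- cells, and the cytokine gene Il4 at 2.62 and 37.3 CPM. Osm and Il4 passed the minimum only through the cKIT- cells, where they were high, so their places in the count add no support. Gata2, a transcription factor gene of basophils and mast cells, stood at 496 and 1132 CPM, Id1 at 81.6 and 235 CPM, and the cyclin gene Ccnd3 at 166 and 367 CPM. The ratios of Gata2 and Ccnd3 also come near equality as UMIs per cell. The lower ones were another cyclin gene, Ccnd2, at 85.9 and 39.9 CPM, and Tnfrsf13b at 45.9 and 19.2 CPM. The listed targets thus went in both directions, and the median log2 ratio of the 12 was 0.91, beside 0.03 for all genes compared. Among Mcpt8-gated cells 35 pathway genes passed, with 4 higher (Il7r, Sh2b3, Osm and Il4) and 3 lower (Kit, Ccnd2 and Tnfrsf13b), against 4.82% and 4.17% of all genes compared. Of these 4, Il7r, Osm and Il4 were under the minimum over all cKIT+ cells. For the whole list of pathway genes the median log2 ratio was 0.56 over all cells and 0.44 among Mcpt8-gated cells. For all genes compared it was 0.03 and 0.04. These medians are of CPM ratios and rest on the scaling too.

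The IL-3 receptor genes were low in the Elane gate together with Jak2. Relative to the Mcpt8 gate, Il3ra was at 0.190 (0.173 to 0.208), Csf2rb at 0.119 (0.108 to 0.130) and Csf2rb2 at 0.0359 (0.0281 to 0.0453). Of the 7 listed receptor genes that passed the minimum there, 5 were at least 2-fold lower, against 8.7% of all genes compared. The other 2 were at least 2-fold higher, against 5.85%. In the Prg2 gate the IL-5 receptor gene Il5ra stood at 23.3 CPM against 0.221 CPM in the Mcpt8 gate, while Csf2rb2 was at 0.120 (0.0852 to 0.166) of the Mcpt8 gate. Of 8 receptor genes that passed there, 2 were at least 2-fold higher and 4 lower, against 6.98% and 6.1% of all genes compared. Il5ra passed only through the Prg2 gate, where it was high, so its place in the count adds no support.

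The genes whose levels were most like each member were drawn from 9345 genes by Pearson correlation of log2(CPM + 1) over 11 groups, namely the 3 Mcpt8 bands and the ungated cells of each library and the Prg2, Gzmb and Elane gates. The groups share libraries and differ in depth, so these values are descriptions. For Jak2 they were Fam174b, Cd53 and Tet2 (each 0.99), and for Pim1 Rgs2, Stk17b and Gpank1 (each 0.99). For Stat5b they were 2810403A07Rik (0.98), Rictor (0.97) and Herc1 (0.97), and for Stat5a Trp53bp1 (0.96) and Heg1 (0.93). For Cish they were Btbd19 (0.97), Pdpk1 (0.96) and Zfp110 (0.96), and for Socs1 Nrbp1, Gatsl3 and Capn1 (each 0.98). For Socs2 they were Zfhx3 (0.98), Acot2 (0.97) and Ccl25 (0.96), and for Socs3 Nadk (0.98), Wdr95 (0.98) and Zfp710 (0.97), both members being at 0 in at least 1 of the groups.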

How the data were processed

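The authors deposited raw UMI counts of genes by cells for 1 library of each sort, produced by Cell Ranger 3.0.2 on mm10 per the labels. The annotation release is not given in the sources used here, and the 10x kit is version 3 in the methods and version 2 in the labels.

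Following the study, cells in the top or bottom 1% of genes detected or the top 1% of UMIs were removed. No doublet caller was run, and cells passing several gates were set apart. A cell passed a gate at 5000 CPM of Mcpt8, 1000 of Prg2 or Elane, or 500 of Gzmb (the last 3 with at least 3 UMIs), and one with Prg2 and Elane counted as Prg2. Genes with at least 10 CPM in 1 of 2 groups were compared at 2-fold, without the 4 gate genes, and a group at 0 was set to 3 UMIs. GENCODE M21, which held 31011 of 31053 gene identifiers, gave coordinates. edgeR 4.0.16 gave TMM factors only. Python 3.11.15, numpy 2.4.6, scipy 1.17.1, pandas 2.3.3 and R 4.3.3 were used, and the fold comparison was tested on simulated data.

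The 8 genes, the other lists and the gate limits were chosen with earlier results of these data known. Genes named are the 8, listed pathway genes past 2-fold, the 3 most alike by correlation (1 of which is not reported here) and markers where a result turned on them. Alternatives covered cell filters, scaling, gate limits, drawing depth and fold limits.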

Additional observations from a re-analysis of the deposited data

How the results depend on the processing

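No paired analysis was possible because there was 1 library per sort, and for the same reason no replicate could be left out. Of 623 alternative values, 449 moved by less than the interval of the value they replace, 166 moved by more, and 8 turned a 2-fold difference around, each as UMIs per cell. Between the ungated Ms4a2 cells of the sorts that value was 0.512 (Stat5b), and between these cells and the cKIT- Mcpt8 gate 0.780 (Jak2), 0.971 (Cish) and 0.993 (Pim1). Between the low Mcpt8 bands it was 0.622 (Stat5b), 0.736 (Jak2), 0.944 (Cish) and 0.852 (Socs1). The restriction to all Ms4a2 cells, UMIs per cell and TMM for the comparisons beyond all cells and Mcpt8 gates, the resting and cycling cells, the removal of cells with shared barcodes or neutrophil RNA and the division of ungated cells were chosen after seeing the data. As UMIs per cell, the ratios over all cells were 1.11 for Cish, 1.10 for Socs1, 0.321 for Socs2 and 3.28 for Socs3. The same ratios of the other genes were 0.397 (Stat5a), 0.731 (Stat5b), 1.07 (Jak2) and 1.36 (Pim1). Among Mcpt8-gated cells they were 0.534 (Stat5a), 0.790 (Stat5b), 0.892 (Jak2), 0.986 (Cish), 1.08 (Socs1) and 1.16 (Pim1). Without the 10 most abundant genes in the totals, the ratios over all cells were 1.77 (Stat5b), 2.59 (Jak2) and 3.28 (Pim1), and among Mcpt8-gated cells 1.72 (Jak2) and 2.25 (Pim1). With every cell given the same weight they were 2.59 (Jak2) and 4.01 (Socs3) over all cells, and 1.73 (Jak2) and 2.25 (Pim1) among Mcpt8-gated cells. In all Ms4a2 cells, Mcpt8-gated ones included, they were 1.97 (Jak2), 1.77 (Socs2), 16.0 (Socs3) and 2.66 (Pim1). Resting Mcpt8-gated cells gave 1.09 (Stat5a), 1.59 (Stat5b), 1.86 (Jak2) and 2.24 (Pim1), and cycling ones 0.853, 1.27, 1.39 and 1.90. Gate limits at 0.5 times and 2 times their value gave Mcpt8-gated ratios of 1.74 and 1.49 for Jak2 and 2.34 and 1.94 for Pim1. In the cKIT- Mcpt8 gate Jak2 then stood at 141 and 125 CPM and Pim1 at 184 and 157 CPM. Without the 5% of cells with most UMIs they stood at 141 and 176 CPM. Socs2 in the Gzmb gate was at 23.9 CPM with doubled limits. At 1000 drawn UMIs the Mcpt8-gated shares in cKIT+ and cKIT- cells were 8.52% and 14.0% for Jak2 and 7.96% and 16.2% for Pim1. With no drawing they were 66.3%, 64.2%, 61.3% and 66.1%. The counts of genes past the fold limit, higher and lower, followed the minimum and the fold by construction. They were 726 and 583 over all cells, 372 and 322 between the Mcpt8 gates, 1058 and 597 for the Gzmb, 558 and 488 for the Prg2 and 456 and 678 for the Elane gate. In the same order they were 370 and 195, 173 and 104, 311 and 270, 123 and 213, and 160 and 297 at a minimum of 50 CPM. At a minimum of 10 UMIs they were 1524 and 2249, 797 and 1412, 2250 and 1032, 1406 and 953, and 1173 and 1816. At 4-fold they were 174 and 129, 70 and 47, 251 and 235, 137 and 154, and 170 and 280. TMM moved those of the Gzmb gate to 587 and 943. Sparse counts limited the Socs genes, since Socs2 in cKIT- and Socs3 in cKIT+ cells were found in fewer than 40 cells.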
